A study of Rattus norvegicus with 24 samples.

Results

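Of the 2352 INO80 peaks in the saline list, 478 shared no base with any peak of the cocaine list and are described here (20.3%, Wilson 95% interval 18.7 to 22.0). They were chosen by peak positions, on comparing both deposited lists over all chromosomes and unplaced scaffolds. The other 1874 saline peaks shared at least 1 base with a cocaine peak and are called shared peaks, and both lists together hold 74075 peaks. Because overlap itself chose the 478 peaks, and a long or tall peak meets another more easily, their lengths, heights and distances are given as a description with no test. The share of 20.3% is the background for each class of saline peaks below.

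The libraries came from rat nucleus accumbens and were made by ChIP-seq, the sequencing of DNA recovered by immunoprecipitating chromatin, with an INO80 antibody, with input DNA sequenced beside it. There are 24 libraries in 4 groups, ChIP and input for each treatment. Each group has 3 numbered samples, and each sample is listed 2 times, told apart by a last number in the title. The titles do not say whether that last number marks a repeated run or another kind of split. Cocaine samples are labelled as rats trained to self-administer the drug and killed 30 days after extended access. Saline samples carry that same protocol text and differ from them by the treatment given in title and labels, and the labels used here name no strain, sex or age. Peak calling by the authors pooled the 3 ChIP samples of a treatment, so no value has a replicate error and no difference was measured against the spread between animals. After filtering, the ChIP pools held 37905014 saline and 43489910 cocaine tags and the input pools 100697179 and 101490635.

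INO80 is the ATPase motor of a remodelling complex that slides nucleosomes and exchanges histone variants, and it works at promoters, replication forks and DNA breaks. Nucleus accumbens neurons receive dopamine input and take part in drug seeking after withdrawal. In a ChIP-seq list, each peak is set against input DNA from the same tissue. Where input reads pile up without any antibody, as at repeated or unevenly mapped sequence, the peak stands on a deep background. Genes and DNA sequence at the peaks were not analysed here, since the positions are on the build rn6 and the reference at hand is of another build.

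Most of the 478 peaks lay where the saline input was deep, and on the median they were shorter and lower than shared peaks. The local background is the number of input fragments that the peak caller set under each summit after scaling input to ChIP depth. It is given here as a multiple of the genome-wide level of 0.986 fragments. Its median was 16.4 times that level in the 478 peaks, with the middle of the distribution between 10.8 and 19.9 (quartiles) and the extremes at 1 and 33.6. Shared peaks had a median of 21.4 times, with quartiles of 15.3 and 26.4. A deep background, taken as 10 times or more, was found for 367 of the 478 peaks (76.8%) and for 1533 of the shared peaks (81.8%). An ordinary background, under 3 times, was found for 63 (13.2%) and 301 (16.1%). The 48 peaks between these limits made up 10.04% of the 478 but 2.13% of the shared peaks, where they numbered 40.

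Pileup, the height of the ChIP fragment stack at the summit, had a median of 46 in peaks without a cocaine counterpart, with quartiles of 37 and 54. Shared peaks had a median of 63, with quartiles of 48 and 79. The ranges overlapped broadly, from 7 to 81 fragments for peaks without a counterpart and from 7 to 104 for shared peaks. Their upper ends differed, since 412 shared peaks (22.0%) were taller than the tallest peak without a counterpart. The top 10% of the saline list by pileup, 235 peaks, contained 0 peaks without a counterpart, which allows a share of up to 1.28%. The bottom 10% contained 49 (20.9%), close to the background of 20.3%. In between, the share rose and then fell. It was 20.5% (16.6 to 25.1) for pileups under 20, 51.0% (43.2 to 58.7) from 20 to under 40 and 49.7% (44.2 to 55.2) from 40 to under 50. From 50 to under 60 it was 25.1% (21.2 to 29.4).

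**Figure D1:**
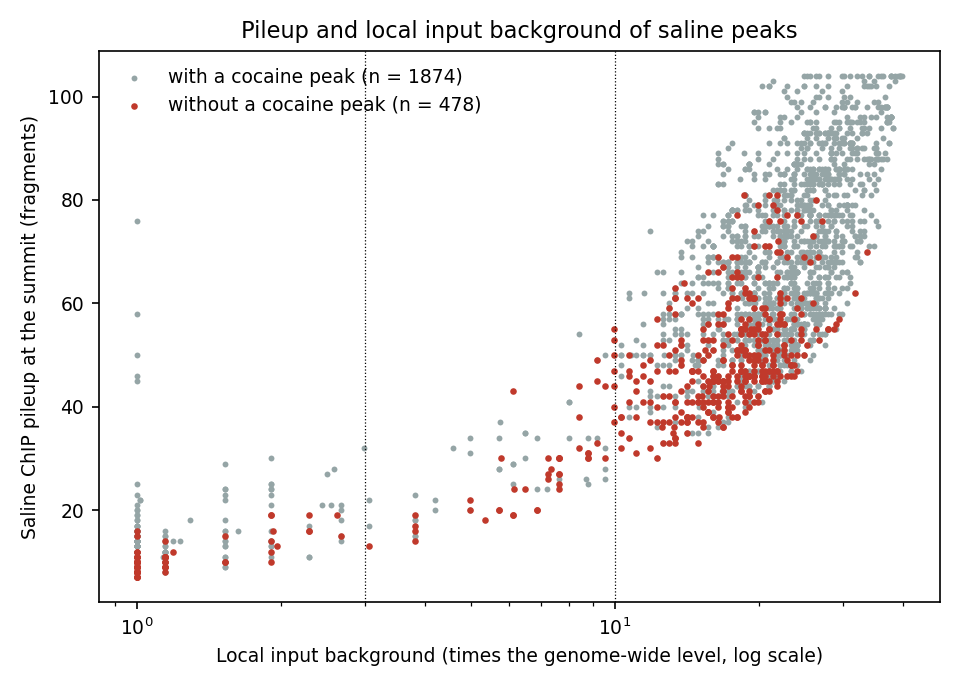
Pileup at the summit of every saline peak (fragments) against its local input background (multiples of the genome-wide level, log scale), with dotted lines at 3 and 10 times. Red points are the 478 peaks without a cocaine peak, which end at a pileup of 81, and grey points are the 1874 shared peaks, which reach 104.

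Peaks without a counterpart were shorter on the median, although most short saline peaks were shared: of the 460 under 60 bp, 174 lacked a counterpart and 286 were shared. Their median length was 67 bp (quartiles 55 and 86.75) against 101 bp (68 and 156) for shared peaks. The shortest length possible in the list, 52 bp, equals the fragment length used by the caller. It was found for 61 of the 478 peaks (12.8%) and for 61 shared peaks (3.26%). Peaks of 150 bp or more numbered 7 among those without a counterpart and 519 among the shared. The longest peak without a counterpart measured 205 bp, and 299 shared peaks (15.96%) were longer. The share without a counterpart fell in steps along length, from 37.8% (33.5 to 42.3) under 60 bp to 29.5% at 60 to 80 bp and 22.4% at 80 to 100 bp. It was 13.5% (10.8 to 16.8) at 100 to 150 bp and 1.33% (0.646 to 2.72) from 150 bp. A shorter peak has fewer bases to share, so this order is partly built into the rule.

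Support by the caller was weaker as well. The median −log10 q was 4.56 in peaks without a counterpart and 8.92 in shared peaks, against a limit of 0.05 on the q-value itself. Of the 478 peaks, 203 (42.5%) had a −log10 q under 4, compared with 332 of the shared peaks (17.7%). At the other end, 78 peaks without a counterpart (16.3%) and 828 shared peaks (44.2%) had a −log10 q of 10 or more. The share without a counterpart was 45.5% (36.0 to 55.2) for a −log10 q under 2 and 6.17% (4.22 to 8.95) from 15 upward. Fold enrichment, which is pileup plus 1 over background plus 1 as the authors' caller wrote it, differed less, with medians of 2.85 and 3.11. The highest fold of a peak without a counterpart was 8.56, which ranked at place 31 of the saline list.

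Along the local background the share without a counterpart rose and then fell. It was 13.8% (10.1 to 18.6) at the genome-wide level and 25.5% (18.2 to 34.3) from just above that level to 3 times. The class between 3 and 10 times had the highest share, 54.5% (44.2 to 64.5) of 88 peaks. From there it decreased to 42.1% at 10 to 15 times, 31.4% at 15 to 20 times, 17.1% at 20 to 25 times and 2.68% (1.66 to 4.31) from 25 times. Intervals cover counting error only, and neighbouring peaks of a stretch are not independent.

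**Figure D2:**
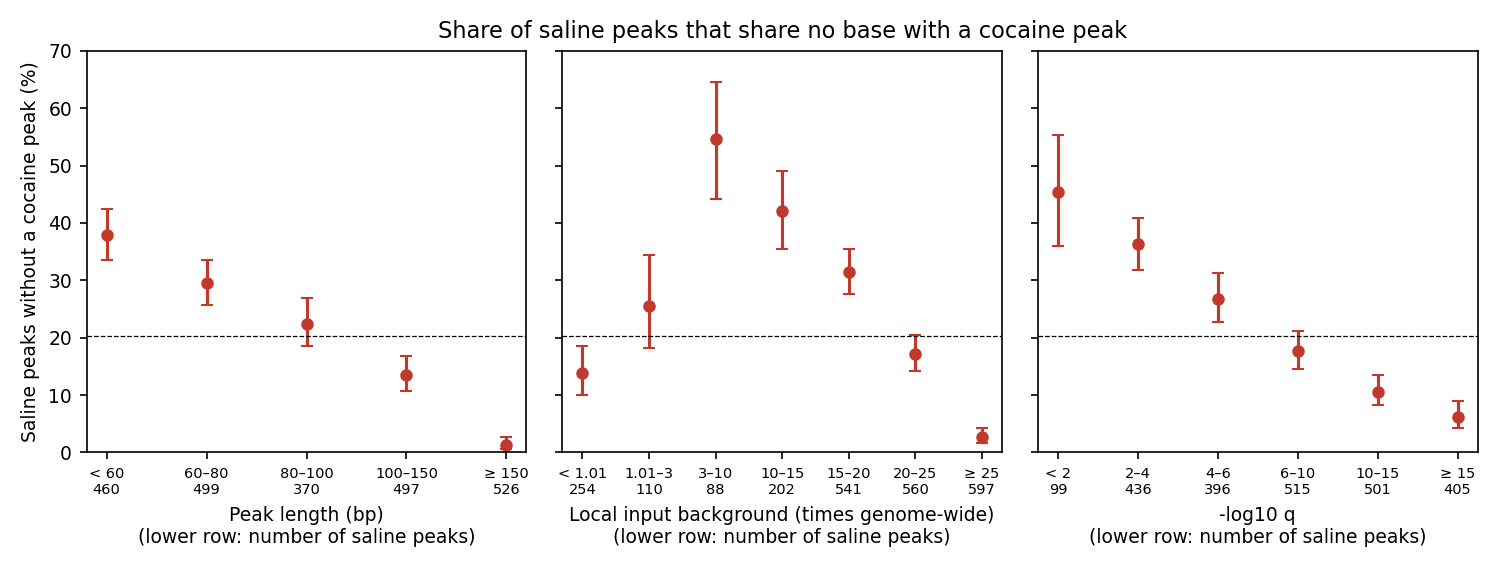
Share of saline peaks without a cocaine peak (percent, points, with Wilson 95% intervals as bars) by peak length in bp, local input background and −log10 q, with the dashed line at 20.3% of the whole list. The share falls with length and −log10 q and has its highest value, 54.5%, at a background of 3 to 10 times.

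The differences between the groups depended on the background class. Among deep peaks, those without a counterpart had a median pileup of 48 against 68, a median background of 18.3 against 22.9 times and a median length of 67 against 100 bp. The share without a counterpart fell from 71.4% (59.9 to 80.7) of the 70 deep peaks with a pileup under 40 to 0.891% (0.347 to 2.27) of the 449 with 80 or more. At ordinary background the pileups were small in both groups, with medians of 10 and 11, and the length again differed, 63 against 102 bp. There the share was 29.1% (20.3 to 39.9) for pileups under 10 and 11.0% (7.06 to 16.7) from 12 upward. Between 3 and 10 times the order of pileups was the other way round, 30 without and 28.5 with a counterpart, and the background was 7.64 against 6.30 times. Lengths were 69.5 and 112.5 bp. The shorter length was thus found in each of the 3 classes, the lower median pileup in the ordinary and deep classes, and the lower median background in the deep class.

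The local background mostly equalled a stack of whole input fragments. For 419 of the 478 peaks (87.7%) it was a whole number after undoing the depth scaling, within 0.01 of a fragment. Shared peaks had this property in 1595 cases (85.1%). The genome-wide level set the background of 35 peaks without a counterpart (7.32%) and of 219 shared peaks (11.7%). Before scaling, the median input stack was 43 fragments where the median ChIP stack was 46, with the saline input pool 2.66 times as deep as the ChIP pool. In 163 of the 478 peaks (34.1%) the unscaled input stack was taller than the ChIP stack, and in 474 shared peaks (25.3%). None of the 63 ordinary-background peaks without a counterpart was among them. That 0 follows from their folds, all at least 3.82 and so above the pool ratio of 2.66, and is no result about these peaks.

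A cocaine peak was often close by although it did not overlap. The cocaine list is far larger, with 71723 peaks covering 9.74 Mb against 2352 covering 0.311 Mb in the saline list. The distances expected from that density alone were not computed. The distance between edges to the nearest cocaine peak had a median of 1075 bp over the 475 peaks on sequences that carry a cocaine peak, with quartiles of 201.5 and 8428 bp. It was at most 200 bp for 117 of them (24.6%, 20.97 to 28.7), at most 1000 bp for 233 (49.1%, 44.6 to 53.5) and at most 10000 bp for 365 (76.8%, 72.8 to 80.4). Beyond 100000 bp lay 36. The extremes were 14 and 2623917 bp, and 3 peaks on 3 scaffolds had no cocaine peak on their sequence. Shared peaks had denser surroundings. Leaving out the cocaine peaks they overlapped, the next cocaine peak was at a median of 216.5 bp and within 1000 bp for 79.6% (77.7 to 81.3).

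Distance went with the background class. Deep peaks without a counterpart had a median distance of 549 bp, and 218 of 366 (59.6%) were within 1000 bp of a cocaine peak. For the class between 3 and 10 times the median was 15302 bp, with 7 of 46 within 1000 bp. For the 63 ordinary-background peaks it was 35340 bp, with 8 within 1000 bp and 22 beyond 100000 bp. Ordinary-background shared peaks had their next further cocaine peak at a median of 1307.5 bp. At ordinary background, too, cocaine peaks were thus farther from the peaks without a counterpart.

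**Figure D3:**
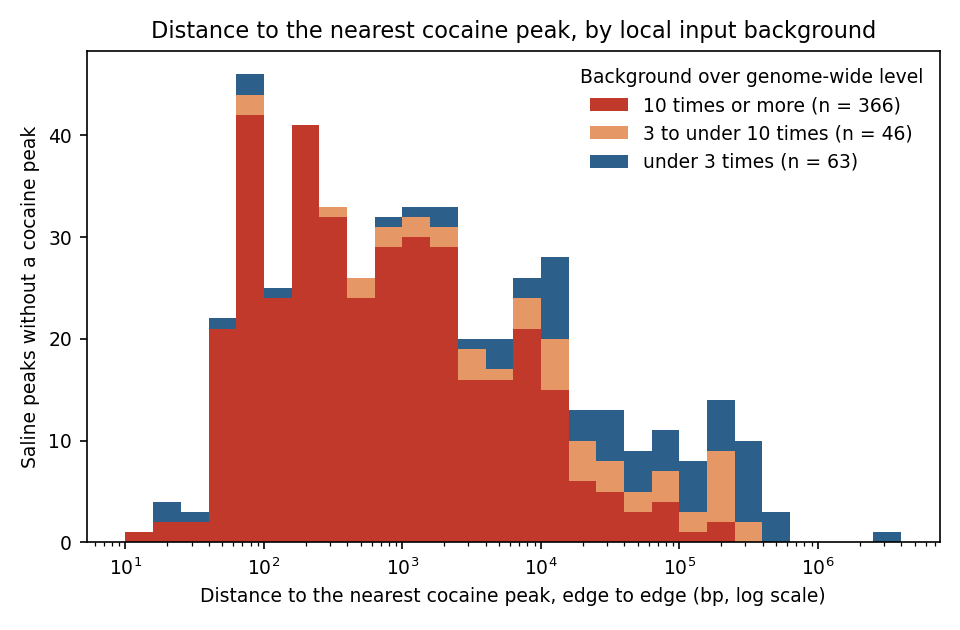
Number of saline peaks without a cocaine peak by distance to the nearest cocaine peak (bp, edge to edge, log scale), stacked by local input background. Deep-background peaks (median 549 bp) fill the left and centre, and ordinary-background peaks (median 35340 bp) lie mostly at the right.

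For deep peaks with a cocaine peak within 1000 bp, that cocaine peak stood on similarly deep input. Deep peaks were far less common in the cocaine list as a whole. On chromosome 1, with most peaks in both lists, 934 of 9619 cocaine and 780 of 857 saline peaks were deep. On chromosome 10, next in number of cocaine peaks, they were 13 of 6090 and 3 of 49. The deep share over the whole cocaine list was not computed. Of the 218 deep peaks with a cocaine peak within 1000 bp, 213 (97.7%) had a nearest cocaine peak that was deep itself. Medians there were a pileup of 51 on a background of 18.7 times in the saline peak and 58 on 20.4 times in its cocaine neighbour, each within its own pool. That neighbour overlapped another saline peak in 109 of the 218 cases. A cocaine peak lay within 1000 bp on both sides of 102 of the 367 deep peaks (27.8%). For the 63 ordinary-background peaks the median backgrounds were close as well, 1 against 1.15 times. They differed more for peaks between 3 and 10 times and for peaks beyond 10000 bp from a cocaine peak. In the class between 3 and 10 times, the median was 7.64 times in the saline peaks and 11.5 times in their nearest cocaine peaks. For the 110 saline peaks beyond 10000 bp from a cocaine peak it was 5.92 against 4.04 times, and 35.5% of their nearest cocaine peaks were deep. Of the 8 ordinary-background peaks with a cocaine peak within 1000 bp, 8 had one of ordinary background and 0 had one that overlapped a saline peak.

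Near the boundary of the rule, members and shared peaks differed by few bases. The closest miss was on chromosome 1, 55220428 to 55220600, a 173 bp peak with a pileup of 65, which ended 14 bp before a cocaine peak with a pileup of 57. On chromosome 2, 159023721 to 159023775, a pileup of 50 stood 16 bp from a cocaine peak of 46. Ordinary-background cases lay on chromosome 5, 140712541 to 140712622, with a pileup of 10 at 17 bp from a cocaine pileup of 12, and on chromosome 9, 70728133 to 70728184, with 7 at 22 bp from 9. Another on chromosome 1, 55224572 to 55224650, was also 22 bp from a cocaine peak. On the other side of the boundary, the chromosome 1 peak at 55647280 to 55647381 shared 2 bases with a cocaine peak and was counted as shared, with a pileup of 41. The chromosome 2 peak at 159038534 to 159038587 shared 8 bases and had a pileup of 49. Shared peaks on chromosome 1 at 55714949 to 55715012 and at 99059355 to 99059462 shared 12 bases each. The fifth, on chromosome 12 at 30810993 to 30811075, shared 13 bases and had a pileup of 9. Such narrow sharing was rare. Only 8 of the 1874 shared peaks (0.427%) shared under 20 bases, and 991 (52.9%) lay wholly inside a cocaine peak.

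The sites of highest fold were small, isolated peaks on ordinary input. The first, on chromosome 3 at 116097646 to 116097697, reached a fold of 8.56 with 16 stacked fragments, and the nearest cocaine peak was 238199 bp away. The second, on the same chromosome at 119802511 to 119802577, reached 8.06 with 15 fragments and was 75819 bp from a cocaine peak. On chromosome 9 at 65054042 to 65054127 a pileup of 14 gave a fold of 7.04 at 31204 bp from a cocaine peak. These 3 sites were alone within 10 kb in the saline list. Folds of 6.94 with equal pileups of 19 were found on chromosome 1 at 181447506 to 181447575 and on chromosome 2 at 158898821 to 158898887. The latter had a neighbour without a counterpart at 158891205 to 158891256, of equal pileup and a fold of 6.14, and their nearest cocaine peak was 45522 and 37906 bp away. That cocaine peak, at 158853093 to 158853299, stood on a background of 24.1 times. Pileups of 12 and folds of 6.55 occurred on chromosome 1 at 171333436 to 171333496 and on chromosome 17 at 26548112 to 26548163, at 259360 and 236852 bp from a cocaine peak. Chromosome 15 at 61734992 to 61735043 reached a fold of 6.39 with 15 fragments, 2442 bp from a cocaine peak.

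The remaining site of the 10 with highest fold differed from these in its surroundings. On chromosome 13 at 33539870 to 33539923 a pileup of 43 on 6.11 times background gave a fold of 6.27. It lay in a stretch of 26 saline peaks of which it alone lacked a counterpart, 502 bp from a cocaine peak of pileup 52.

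The tallest peaks without a counterpart lay on deep input, mostly beside a cocaine peak. Pileups of 81 were reached on chromosome 13 at 33570457 to 33570512 and 33813512 to 33813571, and on chromosome 2 at 160693046 to 160693099. Their distances to a cocaine peak were 65, 70 and 67 bp, and the cocaine pileups there were 90, 79 and 100. The peak on chromosome 14 at 46595657 to 46595711 had a pileup of 80 and lay 87 bp from a cocaine pileup of 93. The exception among the 5 tallest was chromosome 11 at 83225871 to 83225928. It had a pileup of 79 on 19.9 times background and was alone in its stretch, 130487 bp from the nearest cocaine peak, which had a pileup of 10.

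The 5 longest were of mixed kind. The peak of 205 bp on chromosome 10 at 8816480 to 8816684 had a pileup of 10 on ordinary input and lay 324657 bp from a cocaine peak. The 4 others, of 158 to 175 bp, had deep input. They lay on chromosome 1 (181980927 to 181981101, and the closest miss named above), chromosome 19 (26524689 to 26524853) and chromosome 15 (5819019 to 5819176), with pileups of 60, 65, 60 and 31.

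The 5 peaks farthest from a cocaine peak on placed chromosomes were low peaks on ordinary input, with pileups of 8 to 12. Chromosome 13 at 19902000 to 19902090 was 543884 bp away with a pileup of 10. Chromosome 1 at 45488168 to 45488230 followed with 435118 bp and a pileup of 8, and chromosome 7 at 39312624 to 39312675 with 426773 bp and 11. Chromosome 13 at 105529800 to 105529860 and chromosome 2 at 160015624 to 160015675 were 367947 and 342228 bp away.

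The 63 ordinary-background peaks without a counterpart were scattered and low. Their pileups ran from 7 to 19 fragments. The commonest was 10, in 13 peaks, followed by 9 in 10 peaks and by 8 and 11 in 9 peaks each, and 4 peaks reached 19. Ordinary-background shared peaks were low as well, with a median pileup of 11 against 10. Most of them were also isolated. Where the sequence held another saline peak, it lay beyond 10 kb for 229 of 295 shared peaks and for 57 of 62 without a counterpart. Of the 63, 58 (92.1%) had no other saline peak within 10 kb, and these were spread over 21 chromosomes or scaffolds. Among those 58 solitary peaks, 42 lay beyond 10000 bp from any cocaine peak and 22 beyond 100000 bp. Of all 63, 62 had a shared saline peak on their sequence, and it lay within 10000 bp in 1 of these 62 cases. Counting error on a stack of 10 fragments is large, and the depth of the pools limits what can be said of any single one of them.

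Deep-background peaks without a counterpart were less crowded than deep shared peaks. Their median distance to the nearest other saline peak was 911 bp, against 177 bp for deep shared peaks, and 63 of the 367 (17.2%) had no other saline peak within 10 kb. Over all background classes, joining saline peaks less than 10 kb apart gave 707 stretches, of which 277 held a peak without a counterpart. In 105 stretches such peaks stood among shared ones, 269 peaks in all (56.3%), and 172 stretches with 209 peaks held none that was shared. Of these 172, 149 were single peaks and 23 held 2 to 5 peaks. Single peaks made up 31.2% of the 478 peaks and 17.5% of the shared peaks. In stretches of 20 saline peaks or more, 134 of 917 (14.6%, 12.5 to 17.0) lacked a counterpart, below the background of 20.3%, and among single peaks 149 of 477 (31.2%, 27.2 to 35.5) did, above it. Stretches of 2 to under 5 peaks were like single peaks, with 117 of 382 (30.6%, 26.2 to 35.4). Those of 5 to under 20 were like the largest, with 78 of 576 (13.5%, 11.0 to 16.6).

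Inside stretches the lower height was seen again. In 41 stretches with at least 2 peaks of each kind, the median pileup was lower in the peaks without a counterpart in 40 and higher in 0, and the median background was lower in 41. A peak on deeper input needs a taller stack to pass the q cutoff, so pileup and background are linked and these counts are not separate results. The median length was lower in 35 and higher in 6. These 41 stretches are regions of 1 pooled list and not replicates.

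The 5 stretches with most peaks lacking a counterpart were on chromosomes 1 and 17. The first, chromosome 1 at 55693270 to 55758016, spanned 64.7 kb with 67 saline peaks, 14 of them without a counterpart, and 79 cocaine peaks. The 14 had a median pileup of 52.5 and a median distance of 90 bp to a cocaine peak, and the shared peaks there had a median pileup of 58. Chromosome 1 at 55194530 to 55238206 had 12 of 38 saline peaks without a counterpart and 47 cocaine peaks, with medians of 54 and 55.5 fragments. Chromosome 1 at 180875410 to 180974482 had 11 of 76 with 80 cocaine peaks, and at 181166506 to 181230635 it had 10 of 52 with 50. Pileups differed more in these last stretches, with medians of 61 against 75 and of 61 against 70.5. The stretch on chromosome 17 at 89436497 to 89463896 had 11 of 23 saline peaks without a counterpart, 24 cocaine peaks and medians of 47 and 51 fragments.

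**Figure D4:**
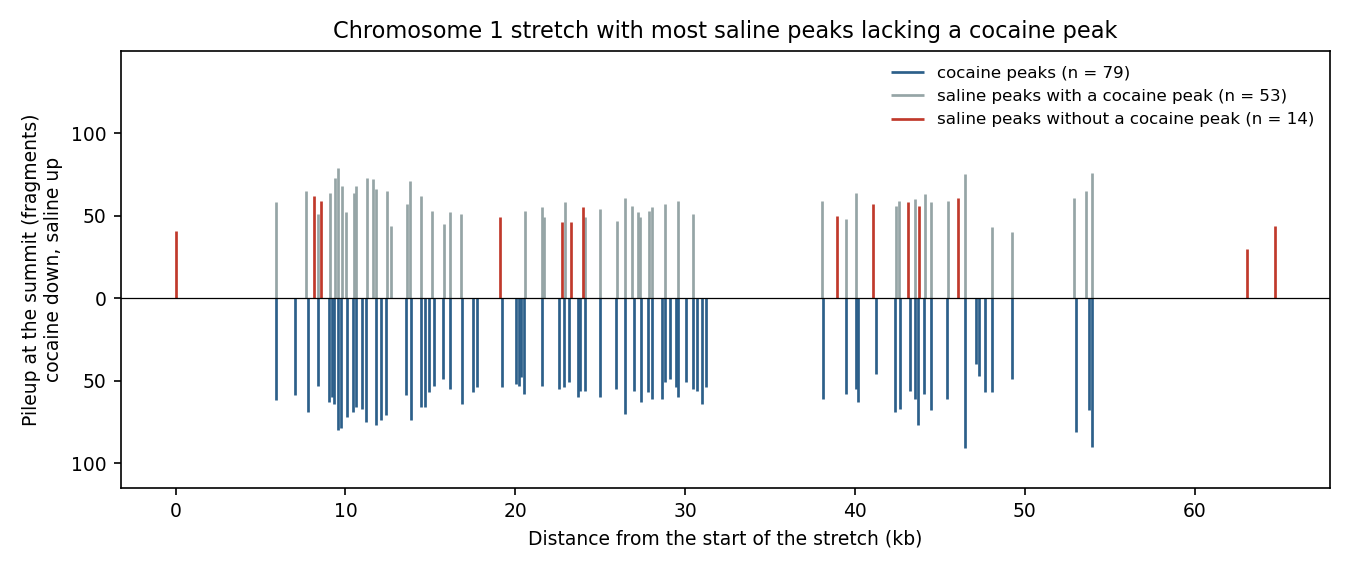
Pileups at the summits of saline peaks (upward) and cocaine peaks (downward) along the chromosome 1 stretch with 14 saline peaks lacking a counterpart, against distance from its start in kb. The 14 red lines stand between the 53 grey lines of shared saline peaks and above gaps between the 79 cocaine peaks, apart from those at the outer ends, where no cocaine peak is drawn.

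By chromosome, peaks without a counterpart were unevenly spread. They occurred on each of the 22 placed chromosomes, at 0.168 per Mb, with 13 chromosomes holding 10 or more. Chromosome 1 carried 153 of the 478 (32.0%) and 37.6% of the shared peaks. Its share without a counterpart, 17.9% (15.4 to 20.6), was near the background. Shares well above 20.3% were found on chromosome 19 with 42 of 77 peaks (54.5%, 43.5 to 65.2), chromosome 16 with 38 of 75 (50.7%, 39.6 to 61.7) and chromosome 9 with 26 of 53 (49.1%, 36.1 to 62.1). Intervals also lay above 20.3% on chromosome 15 with 13 of 28 (46.4%, 29.5 to 64.2), chromosome 8 with 11 of 28 (39.3%, 23.6 to 57.6) and chromosome 7 with 38 of 118 (32.2%, 24.4 to 41.1). Intervals lay below 20.3% on chromosome 6 with 2 of 55 (3.64%, 1.003 to 12.3), chromosome 4 with 2 of 46 (4.35%, 1.20 to 14.5) and chromosome 5 with 2 of 43 (4.65%, 1.28 to 15.5). The same held for chromosome 10 with 3 of 49 (6.12%, 2.10 to 16.5) and chromosome 13 with 17 of 147 (11.6%, 7.35 to 17.7). Densities were highest on chromosome 19 (0.678 per Mb), chromosome 1 (0.541) and chromosome 16 (0.419). The intervals cover counting error only and treat clustered peaks as independent. On chromosome 7, for example, 16 of the 38 lay at 0 to 1 Mb and 11 at 22 to 23 Mb. The side of 20.3% on which an interval lay is therefore a description and no test of a chromosome.

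Within the deep class, where 19.3% of all saline peaks lacked a counterpart, most of these chromosomes kept to the same side, and 2 could not be placed. These intervals, too, treat clustered peaks as independent. Deep saline peaks lacked a counterpart in 60.6% of 66 cases on chromosome 19 (48.5 to 71.5), in 54.5% of 33 on chromosome 9 (37.99 to 70.2) and in 53.8% of 65 on chromosome 16 (41.9 to 65.4). The share was 50% of 12 on chromosome 8 (25.4 to 74.6) and 37.8% of 82 on chromosome 7 (28.1 to 48.6). On chromosome 15 it was 28.6% of 14, with an interval of 11.7 to 54.6 that spans 19.3%. On the low side it was 8.59% of 128 on chromosome 13 (4.87 to 14.7) and 2.70% of 37 on chromosome 4 (0.479 to 13.8). Chromosome 6 had 0 of 39, which allows a share of up to 7.69%, and chromosome 5 had 0 of 20, which allows up to 15%. Chromosome 10 had only 3 deep saline peaks, too few to place. On chromosomes 16 and 19 the cocaine list held 157 and 109 deep peaks of its own, against 65 and 66 in the saline list. Chromosomes 1 and 13 held 934 and 160 deep cocaine peaks, against 780 and 128 deep saline peaks. The ratio over all chromosomes was not computed. Peaks without a counterpart on chromosomes 16 and 19 fell into 20 and 27 stretches, with at most 4 in any stretch, but most of them lay in few megabases. On chromosome 16, 18 of the 38 were at 21 to 22 Mb and 14 at 22 to 23 Mb. On chromosome 19, the 4 windows from 26 to 30 Mb held 7, 10, 5 and 11 of the 42, and 7 lay at 0 to 1 Mb.

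**Figure D5:**
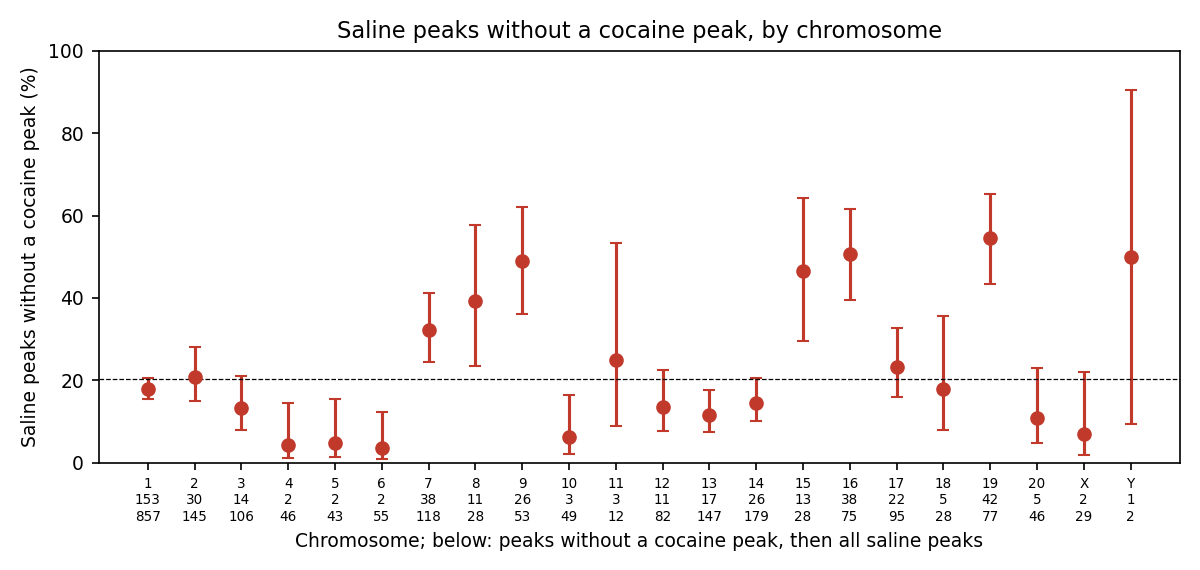
Share of saline peaks without a cocaine peak on each placed chromosome (percent, points, with Wilson 95% intervals as bars), with both counts under each name and the dashed line at 20.3%. The intervals of chromosomes 7, 8, 9, 15, 16 and 19 lie above the line and those of chromosomes 4, 5, 6, 10 and 13 below it. They cover counting error only and treat clustered peaks as independent.

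A few megabases accounted for much of the count. The 10 windows of 1 Mb with most peaks lacking a counterpart held 195 of the 466 on placed chromosomes (41.8%), and 73 of the 133 windows with any held 1. The first 3 were on chromosome 1, at 55 to 56 Mb (38 of 167 saline peaks), 180 to 181 Mb (30 of 212) and 181 to 182 Mb (27 of 161). In these, cocaine peaks were plentiful, 219, 233 and 158. Other windows, picked after their values were seen, held mainly peaks without a counterpart. Chromosome 19 had 10 of 11 at 27 to 28 Mb and 11 of 14 at 29 to 30 Mb. Chromosome 7 had 16 of 20 at 0 to 1 Mb, chromosome 9 had 11 of 15 at 8 to 9 Mb and chromosome 16 had 18 of 30 at 21 to 22 Mb. The median distance to a cocaine peak was 3321, 2496, 1308, 1481 and 421 bp in these 5 windows, and the median background between 16.04 and 18.7 times. The window on chromosome 16 held 154 cocaine peaks, 73 of them deep, and the window on chromosome 19 at 27 to 28 Mb held 37, of which 11 were deep.

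The largest stretch made up of peaks without a counterpart was on chromosome 7, at 530462 to 547638. Its 5 peaks had pileups of 52, 51, 46, 42 and 42 on backgrounds of 17.6 to 22.5 times, and 1 cocaine peak lay within its span. Next were stretches of 4 peaks on chromosome 19 (28017539 to 28024579) and chromosome 2 (49319210 to 49327848), with median pileups of 50 and 46.5. These 3 were singled out after their values were seen.

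Unplaced scaffolds carried 12 of the 478 peaks, on 9 scaffolds, out of 51 saline peaks there (23.5%, 14.0 to 36.8). The highest fold among them, 4.85, came from a pileup of 44 on scaffold KL568345.1 at 10846 to 10901, where the cocaine list had no peak. Scaffold KL568160.1 held the next, at 2789186 to 2789249, where 8 fragments gave a fold of 4.53, at the largest distance of the whole group, 2623917 bp. The following one, on scaffold KL568077.1 at 9037 to 9091, reached a fold of 3.49 with 13 fragments and had no cocaine peak on its scaffold. Scaffold KL568458.1 held 3 saline peaks, and none of the 3 overlapped any of its 11 cocaine peaks. The mitochondrial peak was shared.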

How the data were processed

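INO80 ChIP-seq and input libraries were grouped by treatment from their titles. Per the file headers, the authors called peaks with MACS version 2.0.10.20131216 on 3 pooled ChIP alignments against 3 pooled inputs per treatment, with a q cutoff of 0.05, 1 tag per position and fragment lengths of 52 bp (saline) and 54 bp (cocaine). Removal of duplicates limits the saline pileup to 104. Per the submitters' processing notes, positions are on rn6. No aligner is named in the sources used here. The deposited pileup is a signal of stacked ChIP fragments, and the deposited fold is a ratio of pileup plus 1 to local background plus 1. The p-value and q-value are deposited as −log10 values, and peak length in bp and summit position (other units) are as the authors' files give them. From these, the local background was recovered from pileup and fold, divided by the genome-wide level or by the depth scaling of 0.376. Overlap meant at least 1 base, distances ran between edges with adjacent peaks 1 bp apart, and stretches joined peaks under 10 kb apart. Each chromosome was taken to end at its last peak. Intervals are Wilson 95% and limits for a count of 0 are 3 counts of the total, both for counting error only. Overlap and distance were tested on simulated data, where 2000 of 2000 planted relations were recovered. Python 3.11.15, numpy 2.4.6 and pandas 2.3.3 were used.

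Named regions, on placed chromosomes with ties by position, are the 10 of highest fold, the 5 of highest pileup, longest, farthest and nearest, the 5 shared peaks with fewest shared bases, the 5 stretches with most members and 3 scaffold peaks of highest fold. Members, background limits of 3 and 10 times and lists were chosen with earlier results of these data known. Alternatives were 50% cover, reciprocal overlap, summit overlap, edges within 200 bp or 1 kb, joining under 500 bp, a stricter −log10 q of 2, placed chromosomes and background classes. Genes and sequences were not analysed here, since the gene table is of another build.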

Additional observations from a re-analysis of the deposited data

How the results depend on the processing

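Peaks without a counterpart stayed shorter than shared ones under all 11 alternatives, and pileup and background stayed lower under 10 of them. The exception was saline peaks under 10 times background taken alone, where the difference in median pileup was 3 and in background 0.91 times, both higher without a counterpart. That class mixes ordinary and intermediate backgrounds, as the values by class in the report show. The count was 930 with reciprocal overlap of 50%, 245 with edges within 1 kb and 111 under 10 times background. The share was 23.6% with 50% cover, 39.5% with reciprocal overlap, 22.3% with the summit rule, 15.3% and 10.4% with edges within 200 bp and 1 kb, 23.8% after joining peaks closer than 500 bp and 24.6% under 10 times background. Joining made the difference in median length -74.5 bp, and edges within 1 kb made that in background -7.64 times. The median distance was 591 bp with 50% cover, 48 bp with reciprocal overlap, 2452 and 8182.5 bp with edges within 200 bp and 1 kb, 2798.5 bp after joining, 22466 bp under 10 times background and 549 bp at 10 times or more. A wider or stricter rule changes these values by its own construction.

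No paired analysis was possible because each list pools its 3 samples, and for the same reason no sample could be left out. Depth is known for the pools alone, and at ordinary background stacks of 7 to 19 fragments carry a wide counting error.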

Other observations

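Neighbouring saline peaks were never closer than 50 bp to each other, neither for the 474 peaks without a counterpart that had a saline neighbour on their sequence (0 within 50 bp, 50 within 100 bp) nor for 1866 shared ones (0 and 536). The smallest of these distances were 56 and 53 bp, just above the tag size of 51 bp that the caller read. Whether the calling itself fixes this gap within a list was not tested, and the 0 counts are no result about the peaks. Between the lists, which were called separately, a gap of 50 bp was not complete. A cocaine peak lay within 50 bp of 13 peaks without a counterpart and within 100 bp of 76. Pileup and fold were both equal to those of another peak without a counterpart for 171 of the 478, among them 49 of the 63 at ordinary background, where few values are possible, and 107 of the 367 at deep background.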
